A study of Mus musculus with 10 samples.

Results

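Wild-type (WT) blastocysts were compared with WT zygotes by RRBS, a form of bisulfite sequencing restricted to MspI fragments, which are rich in CpGs. The units compared were autosomal 100-bp tiles with at least 10 counts in each of the 4 WT embryo libraries, where a count is a cytosine read as methylated or unmethylated and counts are summed over the positions of the tile. This left 13131 of the 183899 autosomal tiles with a count in any library of the series. Of these tiles, 12873 also had at least 10 counts in each sperm library. Tiles were chosen on coverage alone, with no level used. Coverage differed with level, however. The median zygote count was 42 in tiles at 20% or less in sperm and 25 in tiles at 80% or more. The choice was therefore not neutral to level.

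The 4 libraries came from C57BL/6J x CAST/EiJ embryos, made by fertilising eggs of superovulated females aged 7 to 10 weeks in vitro with sperm of adult CAST/EiJ males. The zygote stage was sampled 13 h and the blastocyst stage 96 h after fertilisation, each as 2 libraries described as biological duplicates. A zygote library pooled 40 to 50 embryos and a blastocyst library 4, so the levels are means over pools and, in blastocysts, over all cells of the embryo. The series also holds 2 CAST/EiJ sperm libraries, WT by label, and 2 zygote and 2 blastocyst libraries of the genotype maternal Tet3 KO (named CKO), in the same cross. Bisulfite treatment leaves 5-methylcytosine and 5-hydroxymethylcytosine unconverted alike, so each level is the sum of both. The names of all 10 deposited files begin with the name of the paternal strain, which the labels do not explain. Any sorting of reads by parental allele is not given in the sources used here, and a level may therefore belong to 1 or both alleles.

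Mammalian embryos lose most of the DNA methylation inherited from the gametes before implantation. In the zygote, TET3 from the egg oxidises 5-methylcytosine, mainly on the paternal genome. During cleavage, the maintenance methyltransferase DNMT1 is scarce in the nucleus, so methylation is also diluted as DNA replicates, and the blastocyst is the stage of lowest methylation. Imprinting control regions are the best known sequences that keep their methylation through this period.

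The WT zygote libraries held 1456713 and 1233982 counts and the WT blastocyst libraries 1053723 and 1093843, against 2535229 and 2315949 in sperm. The median count per tile was 38 and 30 in the zygote libraries and 27 and 30 in the blastocyst libraries. A tile held a median of 3 CpGs and at most 20, counting a CpG once where both strands were read. One read can span several positions and is then counted at each, so tile counts are not numbers of reads. The files give positions but no gene names, and no annotation of their genome build was at hand, so no tile was assigned to a gene, exon or promoter and no sequence is shown.

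Methylation was lower in WT blastocysts than in WT zygotes. Averaged over all 13131 tiles, it was 22.2% in each zygote library and 11.1% and 10.7% in the blastocyst libraries. The zygote mean was 22.2% ± 0.0191 and the blastocyst mean 10.9% ± 0.299 (SD, n = 2 each). The difference of -11.3 ± 0.299 points (SD) exceeded the spread of the replicates. It depended on the count minimum, with -13.9 points at 5 counts and -7.62 points at 20. An exact permutation test (two-sided) gave p = 0.333, the lowest that 2 against 2 libraries can give, and this limit applies to every comparison of library means here. Blastocysts kept 49.1% ± 0.95 (SE) of the zygote level. This retained share, the blastocyst mean over the zygote mean, is used throughout.

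The overall difference mixed 2 kinds of tile, those methylated and those unmethylated in sperm. In the 3652 tiles at 80% or more in sperm (mean 96.2%), the zygote libraries averaged 58.2% and 58.4% and the blastocyst libraries 28.2% and 27.3%. All zygote values thus lay above all blastocyst values, and the difference was -30.5 ± 0.636 points (SD). The 7528 tiles at 20% or less in sperm were low at both stages, with 2.41% and 2.28% in zygotes and 1.79% and 1.58% in blastocysts. Their difference of -0.658 ± 0.175 points was small but also exceeded the spread, and the groups did not overlap. Tiles between 20% and 80% in sperm, 1693 in number, averaged 32.1% in zygotes and 15.3% in blastocysts. The 258 tiles without enough sperm counts averaged 27.2% and 13.2%.

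**Figure D1:**
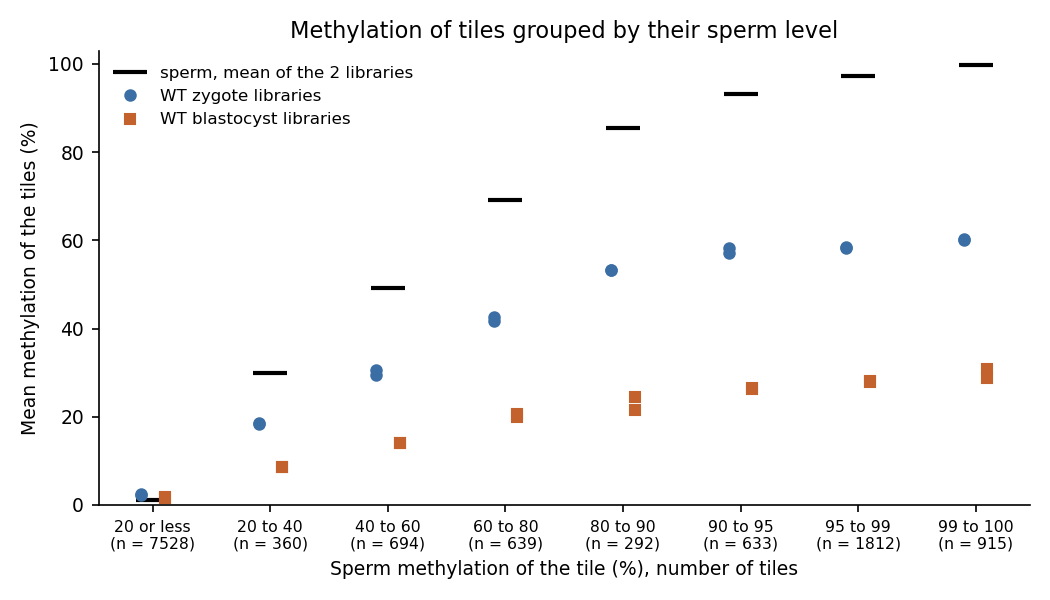
Mean methylation (%) of tiles in 8 classes of sperm level, with the number of tiles under each class. Black bars mark sperm, circles the 2 WT zygote libraries and squares the 2 WT blastocyst libraries. In every class above 20% in sperm the blastocyst libraries lie below the zygote libraries, at 43.3% to 49.4% of their level.

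Within sperm-methylated tiles, the retained share was slightly higher in each higher class of sperm level. It was 43.3% ± 2.65 (SE) in the 292 tiles at 80% to 90% in sperm, 45.7% ± 0.481 at 90% to 95%, 48.0% ± 0.278 at 95% to 99% and 49.4% ± 1.69 in the 915 tiles at 99% or more. The highest class exceeded the lowest by 6.13 ± 3.14 points (SE, exact permutation p = 0.333 on the ratio of shares). Zygote levels followed the same order, from 53.2% to 60.2%, and blastocyst levels ran from 23.0% to 29.7%. The order of retained shares did not continue below 80% in sperm. There the share was 46.5% at 20% to 40%, 47.0% at 40% to 60% and 48.4% at 60% to 80%. Tiles between 20% and 80% in sperm kept 47.6% ± 0.482, which differed from sperm-methylated tiles by -0.00781 ± 0.895 points (SE, exact permutation p = 1). Tiles unmethylated in sperm kept 72.0% ± 4.91, 24.3 ± 4.96 points more (exact permutation p = 0.333). That share divides 2 levels near 2% and says little about single tiles.

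Many intermediate tiles were mixtures of unlike positions. Of the 1302 tiles between 20% and 80% in sperm with at least 2 positions covered in sperm, 843 (64.7%) held a position at 20% or less beside one at 80% or more. The same was seen in 1.23% of sperm-methylated tiles with 2 or more covered positions, a class that by its definition can hold few such mixtures. Only some positions of the mixed tiles had at least 10 counts in each of the 4 WT embryo and both sperm libraries, and these differed in the embryos by their own sperm level. The 293 such positions at 80% or more in sperm averaged 60.3% ± 0.995 in zygotes and 27.9% ± 0.613 in blastocysts (SD, n = 2 each), close to the sperm-methylated tiles. The 203 such positions at 20% or less averaged 0.646% ± 0.378 and 0.329% ± 0.0745. The 459 intermediate tiles without such a mixture averaged 28.2% in zygotes and 14.3% in blastocysts, and kept 50.8% ± 3.495 (SE).

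Within sperm-methylated tiles, the retained share also differed with the zygote level. A class and a difference that share a library would move by selection alone, so tiles were sorted by 1 zygote library and their level read in the other, both ways round. Tiles sorted below 20% averaged 49.97% in the other zygote library and 20.1% in blastocysts, and kept 40.3% ± 3.67 (SE). Tiles sorted at 80% or more averaged 66.8% and 35.3%, and kept 52.8% ± 0.364. The classes in between kept 44.4%, 44.2% and 49.0%. The number of points lost hardly varied, from -29.3 to -31.6 over the 5 classes. Over all 13131 tiles the same sorting gave a difference of -2.92 ± 0.232 points below 20% and -30.8 ± 0.164 points at 80% or more (SD). With the class taken from the mean of both zygote libraries, these became 0.303 and -50.3 points.

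Tiles with more CpGs kept somewhat more, up to 5 CpGs. Among sperm-methylated tiles the retained share was 44.9% ± 0.778 with 1 CpG (1289 tiles), 48.0% ± 0.882 with 2 (1439), 50.1% ± 0.312 with 3 (597), 50.4% ± 3.30 with 4 (214) and 59.1% ± 4.14 with 5 (74). In the 39 tiles with 6 or more it was 46.7% ± 6.75 (SE), so no order can be read there. Tiles with at least 5 CpGs kept 54.9% ± 0.882 and tiles with 1 or 2 kept 46.5% ± 0.813, a difference of 8.35 ± 1.199 points (SE, exact permutation p = 0.333 on the ratio of shares). The blastocyst libraries differed in opposite directions in tiles with 5 CpGs (38.8% and 33.8%) and with 6 or more (24.7% and 32.3%). These deviations cancel when the tiles are pooled. The SE of 0.882 is thus below the 4.14 and 6.75 of the parts, and can understate the error of this difference. The difference was 13.1 points at a count minimum of 20, and -1.60 points with 8 CpGs as the limit, where only 6 tiles were left. At a sperm level of 95% or more it was 10.5 ± 1.91 points, from 58.1% in 65 tiles and 47.6% in 2075.

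CpG count went with a large change in which tiles were methylated at all. Over all tiles, those with 1 or 2 CpGs averaged 35.1% in zygotes and 16.5% in blastocysts, while those with 8 or more averaged 1.83% and 1.001%. The difference between stages was therefore -18.5 points in the sparse and -0.825 points in the dense tiles. Of the 1141 tiles with 8 or more CpGs, 1126 were at 20% or less in sperm and 6 at 80% or more. Dense tiles unmethylated in sperm went from 1.36% and 1.495% in the zygote libraries to 0.945% and 0.67% in the blastocyst libraries.

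The retained share was also lower closer to CpG-dense unmethylated DNA. This comparison was chosen after other results had been seen. Distances were taken to the nearest of 6694 tiles with at least 5 CpGs and 20% or less in sperm, a stand-in for CpG islands. No sperm-methylated tile lay within 1 kb of one. The 240 tiles at 1 to 10 kb averaged 57.5% and 55.2% in zygotes and 23.1% and 23.98% in blastocysts, and kept 41.8% ± 1.16 (SE). The 1623 tiles at 10 to 100 kb kept 45.7% ± 1.08. The 1789 tiles farther away averaged 59.6% and 59.5% against 30.2% and 29.4%, and kept 50.0027% ± 0.704. The farthest class exceeded the nearest by 8.21 ± 1.35 points (SE, exact permutation p = 0.333 on the ratio of shares), and by 9.76 ± 2.56 points among tiles of 1 or 2 CpGs. At a count minimum of 20 the difference was 3.87 points.

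**Figure D2:**
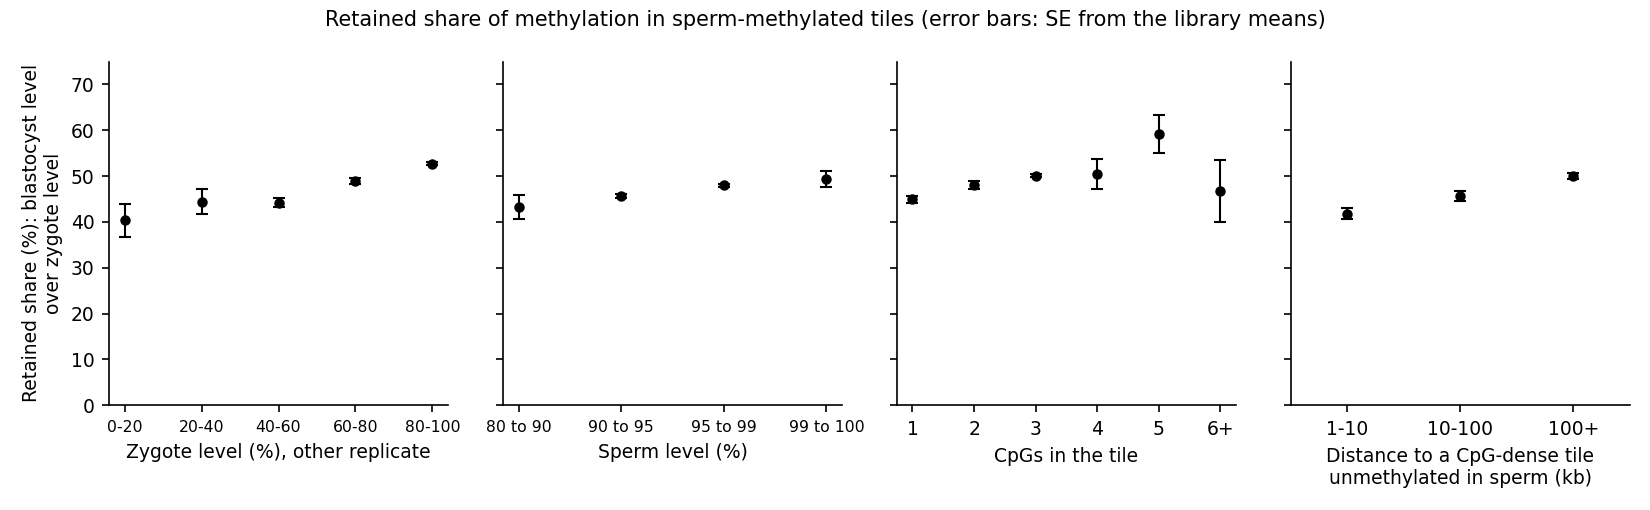
Retained share (%), the blastocyst level over the zygote level, in sperm-methylated tiles sorted by the zygote level of the other replicate, by sperm level, by CpG count and by distance to a CpG-dense tile unmethylated in sperm. Points are shares of the class means and bars their SE from 2 libraries a stage; shares range from 40.3% to 59.1%.

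The lower level was found on every autosome. On each of the 19, both blastocyst libraries lay below both zygote libraries in sperm-methylated tiles (107 to 301 tiles a chromosome). The difference was smallest on chromosome 16, from 56.9% and 49.5% in zygotes to 27.7% and 25.4% in blastocysts. It was largest on chromosome 15, from 57.7% and 58.7% to 28.1% and 23.5%. Retained shares ran from 44.4% ± 3.95 on chromosome 15 to 51.9% ± 5.04 on chromosome 14, with a median SE of 2.17 points. The extreme chromosomes thus differ by about their error.

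**Figure D3:**
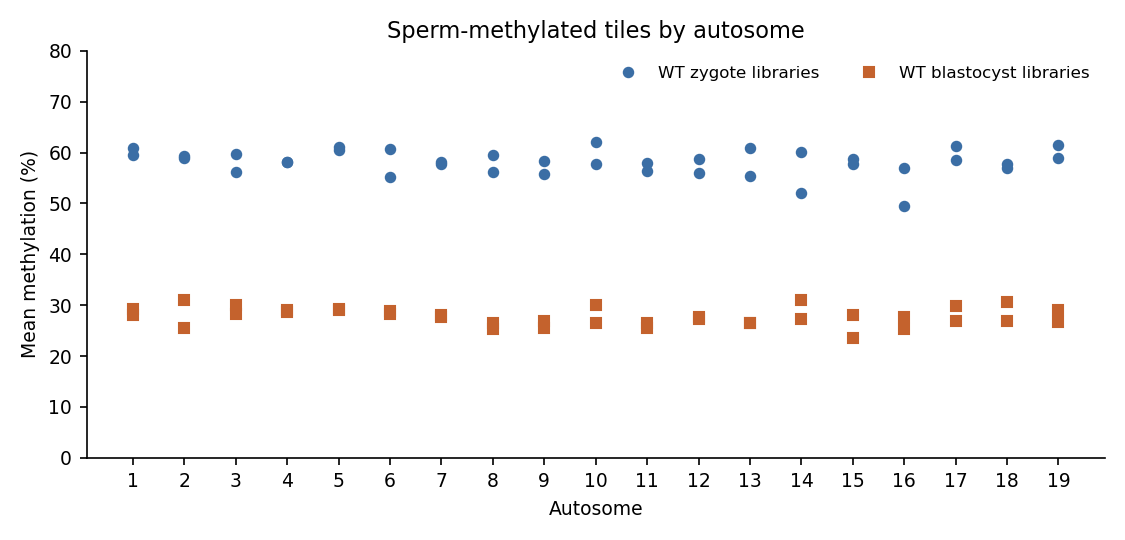
Mean methylation (%) of sperm-methylated tiles on each autosome in the 2 WT zygote libraries (circles) and the 2 WT blastocyst libraries (squares). The zygote means per chromosome run from 53.2% to 60.8%, and no blastocyst library reaches a zygote library on any chromosome.

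The shape of the distribution differed as well as its mean. In sperm, 90.8% and 88.7% of the sperm-methylated tiles were at 90% or more. In zygotes the tiles spread over the whole scale, with 13.0% ± 0.0387 at 20% or less, 59.0% ± 0.523 between and 28.0% ± 0.484 at 80% or more (SD, n = 2). In blastocysts 46.4% ± 2.28 were at 20% or less, 49.3% ± 3.04 between and 4.34% ± 0.755 at 80% or more. Tiles without any methylated count made up 6.63% ± 0.271 in zygotes and 24.6% ± 4.72 in blastocysts. With each tile thinned to 10 counts per library these were 7.93% ± 0.329 and 30.1% ± 5.38. Thinning equalises counts, not the number of DNA molecules behind them.

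**Figure D4:**
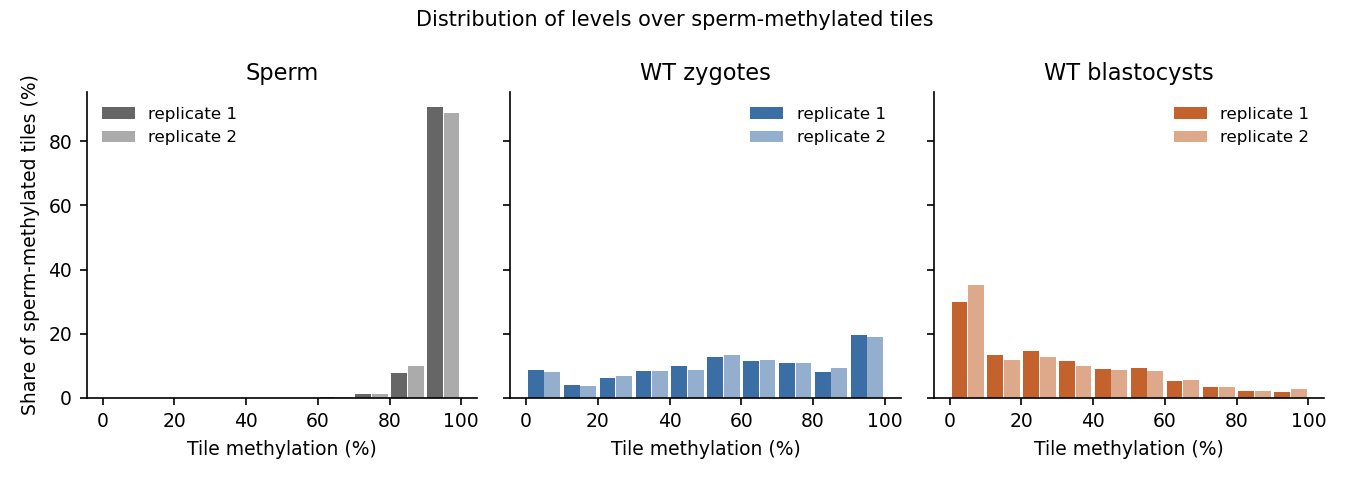
Share (%) of the 3652 sperm-methylated tiles in steps of 10 points of tile methylation, for both replicates of sperm, WT zygotes and WT blastocysts. Sperm tiles pile up at 90% or more, zygote tiles cover the scale with 19.7% and 19.0% at 90% or more, and 30.0% and 35.3% of blastocyst tiles lie below 10%.

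Single tiles varied widely between replicate pools. In sperm-methylated tiles zygote replicates differed by 37.8 points (root mean square) and blastocyst replicates by 29.7 points, where counting error alone would give 14.2 and 13.2 points. The replicate variance was 7.13 and 5.08 times the binomial variance. It equalled that of 3.15 independent draws per zygote library and 4.06 per blastocyst library, against median counts of 25 and 22 per tile. In tiles with at least 25 counts in every library these values were 4.57 and 5.99 draws. The zygote replicates differed by 50 points or more in 19.9% of the tiles and the blastocyst replicates in 10.5%. Across the 3652 tiles, Pearson's r was 0.198 between the zygote libraries, 0.335 between the blastocyst libraries and 0.184 to 0.227 between a zygote and a blastocyst library. These correlations describe tiles that share libraries and reads, and carry no test.

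Among sperm-methylated tiles, the levels of tiles under 10 kb apart were more alike than those of tiles farther apart. To keep 1 library from being compared with itself, each tile was read in replicate 1 and its neighbour in replicate 2, and the reverse. Within the same tile (3652 tiles), r was 0.198 for the zygote level and 0.335 for the blastocyst level. Between adjoining tiles (225 pairs), r was 0.19 for the zygote level and 0.182 for the blastocyst level. Between tiles 600 to 9900 bp apart (187 pairs) it was 0.176 and 0.147. At 10 to 100 kb (1295 pairs) it was 0.0182 for both. For the difference between stages no order with distance was seen: r was 0.0651 within the same tile, 0.0275 between adjoining tiles, -0.0625 at 200 to 500 bp (27 pairs) and 0.0499 at 600 to 9900 bp. Adjoining tiles can share fragments.

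Neighbouring positions were also compared, taking pairs 2 to 50 bases apart with equal counts, which may share reads, both at 80% or more in sperm, and averaging between 20% and 80% in the library at hand. The 2 positions had the same level in 42.6% of 2806 pairs and 43.0% of 2144 pairs in the zygote libraries. In the blastocyst libraries they did so in 28.0% of 1914 pairs and 29.6% of 2031 pairs. The median difference between the positions was 9.30 and 8.96 points in zygotes and 16.7 and 18.8 points in blastocysts, without overlap of the groups. The root mean square differences did overlap, at 29.9 and 29.1 points in zygotes and 28.6 and 33.9 points in blastocysts. The pairs were chosen within each library by its own level, with median counts per position of 18 and 16 in zygotes and 14 and 16 in blastocysts, and are not the same pairs.

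Single tiles were tested with edgeR's quasi-likelihood test on methylated and unmethylated counts, with Benjamini-Hochberg adjustment over all tiles. It called 6 of 13131 tiles lower in blastocysts (0.0457%) and 0 higher. At an unadjusted p below 0.05, 1027 tiles were lower (7.82%) and 32 higher (0.244%). edgeR's likelihood ratio test called 184 lower and 3 higher, and limma called 0. The count of 6 became 0 without blastocyst replicate 1 or 2, 3 without zygote replicate 1, 20 without zygote replicate 2, and 1 with the replicate number as a block. All 6 tiles were methylated in sperm, as were 797 of the 1027 tiles and 3652 of the 13131 tested. The share at an unadjusted p below 0.05 and lower was thus 21.8% of sperm-methylated tiles, against 7.82% of all tiles. It was 0.85% of sperm-unmethylated tiles, which averaged 2.35% in zygotes. Few of those had methylation to lose, so these shares do not compare like with like.

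The lowest p belonged to a tile of 4 CpGs at chr17:43214201-43214300. It fell from 92.0% and 92.9% in the zygote libraries (100 and 84 counts) to 5.26% and 5.60% in the blastocyst libraries (38 and 125 counts), with an adjusted p of 0.000363 in edgeR. Sperm had 79.1% and 82.6% there. A tile of 3 CpGs at chr8:119539001-119539100 fell from 100% and 59.5% to 0% in both blastocyst libraries (36 and 72 counts). Taking 3 counts of the total as the limit, a count of 0 there would allow up to 8.33% and 4.17% if all counts were independent. One read can be counted at each of the 3 positions, so the limit for independent reads is higher. The same holds for the other limits given for 0 below. Reads carry no molecular identifiers, so the number of molecules is not known. The 2 zygote pools of this tile differed by more than many tiles do between stages. A tile of 3 CpGs at chr14:21080001-21080100 fell from 92.6% and 92.7% to 10.5% and 21.7%.

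The other called tiles were less even. A tile of 6 CpGs at chr17:27177301-27177400 had 100% in both zygote libraries but 17.9% and 75.0% in the blastocyst libraries. A tile of 6 CpGs at chr7:52632101-52632200 fell less, from 96.2% and 87.0% to 46.2% and 55.6%, with 54 to 342 counts a library. The sixth, of 6 CpGs at chr10:60270801-60270900, had fewer than 20 counts in 2 libraries and was named after its values were seen. It had 93.8% and 69.2% in zygotes and 0% in both blastocyst libraries, with 13 and 18 counts in the thinnest libraries. Its blastocyst counts of 0 would allow up to 16.7% and 5.26% if the counts over its 6 positions were independent. In each of these 6 tiles both blastocyst libraries lay below both zygote libraries, as in 23% of all tiles. The 6 were called lower from these same libraries, so that order adds no support.

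Tiles with at least 8 CpGs and 20 counts in every library numbered 887, and in 8 of them both blastocyst libraries were at least 20 points below both zygote libraries. Of all 1141 tiles with 8 or more CpGs, 0.964% had such a difference, against 12% of all tiles. Of these dense tiles, 1126 were at 20% or less in sperm, with little methylation to lose. Among tiles at 20% or less in sperm, the share was 0.799% with 8 or more CpGs and 0.664% in all. Among tiles at 80% or more in sperm, it was 33.3% (2 of 6 tiles) and 32.5%. Among the 887, the 4 with the largest differences did not pass the test, and 3 of them were unmethylated in sperm. The first, at chr18:36038701-36038800, had 2.56% and 0% in sperm, 83.8% and 75.6% in zygotes and 24.3% and 0% in blastocysts (edgeR, adjusted p = 0.118). The 0 comes from 23 counts over 10 positions. A tile of 17 CpGs at chr1:33777101-33777200 had 0.654% and 0% in sperm, 42.2% and 40.0% in zygotes (64 and 20 counts) and 0% in both blastocyst libraries (114 and 220 counts over 18 positions). A tile of 8 CpGs at chr6:113327501-113327600 had 0% in sperm, 37.5% and 68.8% in zygotes and 0% in blastocysts (29 and 20 counts over 9 positions). Independent counts would allow up to 13.04% in the first tile, 2.63% and 1.36% in the second and 10.3% and 15% in the third. With 1 read counted at several positions, these values may rest on few reads, and the limits are then higher. Only the tile at chr15:100630201-100630300 was methylated in sperm (98.8% and 98.5%), with 72.5% and 78.9% in zygotes and 22.4% and 15.6% in blastocysts.

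A tile could also be placed by its libraries alone. Both blastocyst libraries lay below both zygote libraries in 23% of all tiles and above in 2.19%, and by at least 20 points in 1581 tiles (12%) and 58 tiles (0.442%). Of the sperm-methylated tiles, 1187 (32.5%) were at least 20 points lower and 21 (0.575%) higher. Of the sperm-unmethylated tiles, 50 (0.664%) were lower and 25 (0.332%) higher. At a zygote mean of 2.35%, few of these tiles could fall by 20 points. The counts depended on the count minimum: at 20 counts 462 of 5450 tiles (8.48%) were lower and 15 (0.275%) higher.

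Few tiles were high in all 4 libraries. Of the 446 tiles at 80% or more in both zygote libraries, 17 (3.81%) were at 80% or more in both blastocyst libraries and 48 (10.8%) at 20% or less in both. These tiles were chosen for high values in both zygote libraries, and the part of that choice in the lower blastocyst values was not tested. Only 93 tiles had at least 60% in all 4 libraries, 87 of them methylated in sperm. Of these, 20 had at least 3 CpGs and 20 counts in every library. The tile among them with the highest value in its lower blastocyst library, of 4 CpGs at chr1:24426101-24426200, had 100% in both zygote libraries and 100% and 97.5% in the blastocyst libraries (32 and 40 counts). A tile of 4 CpGs at chr6:118763701-118763800 had 100% and 93.7%, then 92.3% and 100%. At chr12:110764901-110765000 the levels were 91.3% and 100% in zygotes and 76.9% and 93.3% in blastocysts. At chr7:130315501-130315600 they were 87.5% and 76.8%, then 69.2% and 67.0%. These 4 tiles had 95.6% or more in both sperm libraries.

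A tile of 5 CpGs at chr5:135273901-135274000 was intermediate in sperm, with 63.3% and 54.5%. Its zygote libraries were both at 100% and its blastocyst libraries at 92.5% and 80.0%. A tile at chr14:65874801-65874900 lay higher in blastocysts (91.7% and 70.2%) than in zygotes (75.0% and 62.9%), with overlapping libraries. The last 2 of the 8 named were at 100% in both zygote libraries. In blastocysts chr5:120988601-120988700 had 100% and 66.7%, and chr1:182968301-182968400 had 64.6% and 71.4%. None of the 8 tiles passed the test in either direction (edgeR).

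**Figure D5:**
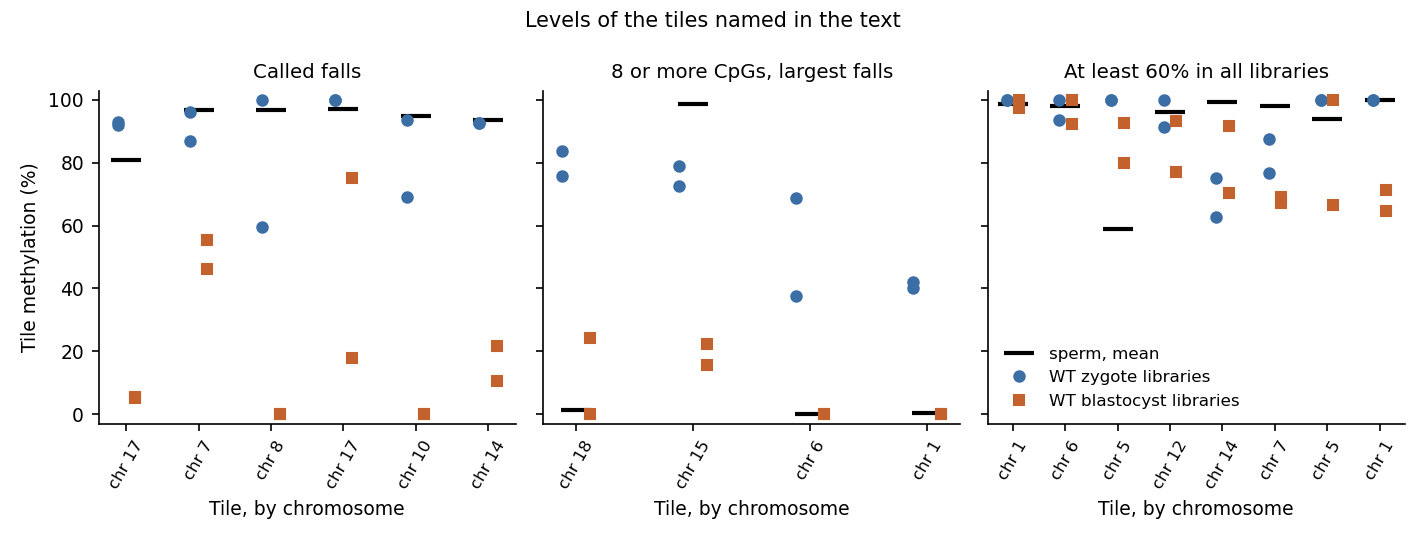
Methylation (%) of single tiles, each marked by its chromosome: the 6 called tiles, the 4 tiles of 8 or more CpGs with the largest differences, and 8 tiles at 60% or more in all libraries. Black bars mark the sperm mean, circles the WT zygote libraries and squares the WT blastocyst libraries. Both blastocyst libraries lie below both zygote libraries in the first 2 panels, whose tiles were chosen for lower blastocyst levels. The third shows tiles chosen for high levels in all libraries, which stayed at 64.6% or more in blastocysts.

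No tile was called higher in blastocysts. In 58 tiles (0.442% of all) both blastocyst libraries were at least 20 points higher. Of these, 25 were unmethylated in sperm (0.332% of all such tiles) and 21 methylated in sperm (0.575% of all such tiles). Against a median of 3 CpGs over all tiles, that of the 58 was 2. The tile with the largest difference among those with 20 counts in every library was chosen after its values were seen. It lies at chr8:34594901-34595000, with 0% in sperm, 14.8% and 18.2% in zygotes and 76.9% and 83.3% in blastocysts (edgeR, adjusted p = 0.404). The adjoining tile at chr8:34594801-34594900 had 33.3% and 54.5%, then 76.9% and 100%. Both tiles had 27, 33, 39 and 30 counts, so they may share reads.

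Sums over larger regions gave more precise values. In 455 windows of 5 Mb, which hold the counts of a median of 22 tiles, the edgeR quasi-likelihood test called 230 lower (50.5%) and 1 higher (0.22%) in blastocysts (adjusted p below 0.05). The level was lower in 428 windows and higher in 26, and the median difference was -7.43 points. Both blastocyst libraries lay below both zygote libraries in 372 windows and above them in 3. Called windows held more counts than those not called. With windows of 2 Mb, 324 of 812 were called lower, and with windows of 10 Mb, 195 of 251. The 50.5% is thus not the share of the genome that was lower. A window of 119 tiles at chr8:120000001-125000000 had 21.6% and 24.2% in zygotes and 11.7% and 9.22% in blastocysts (4303 to 5507 counts a library, adjusted p = 2.05e-10). The window called higher, at chr16:65000001-70000000, held 4 tiles, with 0% and 4.396% in zygotes and 21.8% and 3.16% in blastocysts, so its libraries overlapped. The count of called windows was 127 without blastocyst replicate 1 and 92 without blastocyst replicate 2, and limma called 0, with 245 at an unadjusted p below 0.05.

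CKO embryos were compared over the 1932 sperm-methylated tiles covered in all 8 embryo and both sperm libraries. WT embryos went from 57.9% to 27.0% and CKO embryos from 69.5% to 36.1%. The CKO difference between stages was larger by -2.50 ± 0.793 points (SE), while the retained share was 46.7% ± 1.22 in WT and 51.9% ± 0.408 in CKO. Whether the genotypes differ in either quantity was not tested.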

How the data were processed

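The deposited files hold, per cytosine position, the authors' percent methylation and the methylated and unmethylated counts behind it. Levels recomputed from those counts matched the authors' percent to 0.001 points at 100% of positions. Bismark 0.10.1, Trim Galore and the build mm9 are listed per the submitters' processing notes, and how they were set is not given here. Coordinates are mm9 as deposited, counted from 1. Only counts were analysed, summed over 100-bp tiles with Python 3.11.15. Positions 1 base apart were counted as 1 CpG.

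Tiles and windows (100 counts or more in each library) were tested with edgeR 4.0.16 (R 4.3.3), quasi-likelihood, dispersion 0, on the 4 WT embryo libraries with a depth term each; limma 3.58.1, an edgeR likelihood ratio test and a common dispersion were alternatives. The tests were tested on simulated data, where the tile test recovered few of the simulated differences, so a tile that was not called may still differ. SDs are between the 2 libraries of a group, and SEs derive from them, so neither covers the choice of tiles. Permutation tests were exact and two-sided over the 4 libraries. Intermediate, low and high mean 20% to 80%, at most 20% and at least 80%.

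Tiles named were up to 12 of the largest called differences with 20 counts in each library (5 qualified), called rises, the 8 best-retained tiles with 3 CpGs or more, and the 4 largest differences with 8 CpGs or more; others are said to be chosen later. The members, classes and tests were chosen with earlier results of these data known. Imprinting control regions were not analysed here.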

Additional observations from a re-analysis of the deposited data

Results flagged for a closer look

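Chromosome X was not among the autosomal tiles and is data outside the main comparison, in which the same direction was seen. On it 25 tiles had at least 10 counts in each WT embryo and sperm library. The zygote libraries averaged 18.5% and 17.2% and the blastocyst libraries 6.48% and 4.10%, a difference of -12.5 ± 1.91 points (SD, n = 2 each) with no overlap of the groups. Only 4 of these tiles were at 80% or more in sperm. They had 67.8% and 60.8% in zygotes and 25.4% and 0% in blastocysts.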

How the results depend on the processing

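The difference over all tiles was -13.9 points at a count minimum of 5, -7.62 at 20, -12.4 over single positions and -7.90 with all counts pooled, alternatives that also change which tiles enter or how they weigh. In sperm-methylated tiles it was -31.2 over single positions and -31.3 pooled. Leaving out each WT embryo library gave -11.5 to -11.1 points over all tiles, -31.0 to -30.1 in sperm-methylated, -0.763 to -0.552 in sperm-unmethylated tiles and -3.20 to -1.80 for the genotype difference, for which no CKO library was left out. Of 8226 single positions 0 were called (525 at an unadjusted p below 0.05, edgeR), and the fit of 8 libraries called 32 of 7546 tiles. Of the 13131 tiles, 0 were called with a common dispersion (529 at an unadjusted p below 0.05, edgeR). The likelihood ratio test called 187 of them, and limma called 0 (1882 at an unadjusted p below 0.05). With the replicate number as a block, 1 tile and 250 windows were called; same-numbered libraries share only a number (r of their deviations 0.00568), so pairing is not given. Windows numbered 0 with limma and 92 to 227 with a library left out. Tiles at least 20 points lower numbered 3318 of 23242 (14.3%) at a minimum of 5 and 462 of 5450 (8.48%) at 20. They numbered 1016 with a limit of 30 points and 2233 to 2704 with a library left out. Tiles higher numbered 141 (0.607%), 15 (0.275%), 24 and 179 to 247 in the same order. Fewer libraries make such counts larger by construction. Classes by zygote level gave -31.2 points (80% or more; -30.82 to -30.80 with a blastocyst library left out) and -1.50 points (below 20%; -3.07 to -2.77) at a minimum of 20, against -50.3 and 0.303 points with the class from both zygote libraries, where selection enters. The dense minus sparse retained share was 11.3 points at a minimum of 5, 13.1 at 20, 6.12 with positions counted singly, -1.60 with 8 CpGs as the limit, and 7.68 to 9.03 with a library left out. The cause of these changes was not tested. Tiles with at least 25 counts in every library still varied like 4.57 draws per zygote and 5.99 per blastocyst library, so their counts overstate the precision of single tiles.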
